A study of Arabidopsis thaliana with 12 samples.

Results

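The chloroplast NDH complex is the NADH dehydrogenase-like complex of the thylakoid membrane, and the genes described here are the nuclear genes for 10 of its subunits. They were taken by gene identifier: NDHL, NDHM, NDHN, NDHO and NDHS, and PNSB1, PNSB2, PNSB3, PNSB4 and PNSB5. Of these 10, 8 had an entry in at least 1 of the 3 deposited tables, which together name 31916 genes. NDHM (AT4G37925) and NDHO (AT1G74880) had no entry and were not analysed here. RNA had been sequenced from whole Arabidopsis thaliana seedlings of the Columbia background, 12 libraries in 4 groups of 3. After 3 days of cold and 12 h of light, all seedlings spent 4 days in darkness. The groups were wild type then given white light for 6 h (Col_DL6h), the mutant det1-1 kept dark (det1-1_D), the mutant pifq kept dark (pifq_D) and wild type kept dark (Col_D). DET1 is a repressor of light-type development, and det1-1 is a known point-mutation allele of it. In pifq the mutated genes are PIF1, PIF3, PIF4 and PIF5, whose products are transcription factors that keep seedlings in the dark-grown state. The labels give the mutants by name only, and they do not say whether the libraries of a group came from separate cultures.

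The NDH complex is related to respiratory complex I. It takes electrons from reduced ferredoxin, passes them to plastoquinone and pumps protons, and so forms one route of cyclic electron flow around photosystem I. Some of its subunits are encoded in the plastid and the others in the nucleus, and the complex is built from membrane, stromal and lumenal parts. NDHL, NDHM, NDHN and NDHO belong to subcomplex A, where NDHL spans the membrane and the others face the stroma. NDHS belongs to the electron-input part, subcomplex E, and forms the site where ferredoxin docks. PNSB1 to PNSB5 make up subcomplex B, which is found in land plants and has no counterpart in mitochondrial complex I.

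All 10 genes are nuclear, and their positions are those of RefSeq on TAIR10.1, whereas the submitters' processing notes name TAIR10; the tables hold no coordinates. NDHL (AT1G70760) lies on chromosome 1 from 26687202 to 26688384 on the plus strand. NDHN (AT5G58260) lies on chromosome 5 from 23560568 to 23562001 on the minus strand. NDHS (AT4G23890) lies on chromosome 4 from 12420414 to 12421464 on the minus strand and is the single gene of the 10 whose annotated transcript has 1 exon. The longest transcripts of the others have 2 to 7 exons. PNSB1 (AT1G15980), PNSB2 (AT1G64770) and PNSB4 (AT1G18730) are on chromosome 1 and on the plus strand, at 5489145 to 5491363, 24057063 to 24059621 and 6460403 to 6462344. PNSB3 (AT3G16250) is on chromosome 3 from 5506931 to 5508414 and PNSB5 (AT5G43750) on chromosome 5 from 17579867 to 17581275, both on the minus strand. The coding length runs from 477 bases in NDHO to 1386 bases in PNSB1.

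Since most of the genes with values moved together, the 300 bases upstream of each annotated start were searched on both strands for motifs known from light-regulated promoters. These were the G-box CACGTG, which PIF and HY5 factors bind, the related E-box CACATG, the CCAATC element tied to GLK factors, and the I-box GATAAG. The windows below are those of NDHL and PNSB5, the pair that held a G-box, and of NDHS, the gene that was not higher in any comparison; capitals mark the motif matches. They are read 5′ to 3′ on the gene's own strand, chr1:26686902-26687201 (plus strand), chr5:17581276-17581575 (minus strand) and chr4:12421465-12421764 (minus strand) of TAIR10.1.
NDHL: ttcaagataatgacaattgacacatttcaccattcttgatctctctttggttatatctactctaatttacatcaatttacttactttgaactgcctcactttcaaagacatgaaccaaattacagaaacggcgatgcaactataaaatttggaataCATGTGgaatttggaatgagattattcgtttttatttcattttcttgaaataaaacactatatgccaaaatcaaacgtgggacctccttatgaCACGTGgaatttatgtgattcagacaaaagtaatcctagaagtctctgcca
PNSB5: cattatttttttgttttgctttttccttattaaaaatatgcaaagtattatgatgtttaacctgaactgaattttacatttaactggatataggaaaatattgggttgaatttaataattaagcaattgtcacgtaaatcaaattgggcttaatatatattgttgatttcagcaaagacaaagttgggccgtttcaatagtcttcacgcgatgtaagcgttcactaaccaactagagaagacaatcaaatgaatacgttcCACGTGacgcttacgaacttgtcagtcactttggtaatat
NDHS: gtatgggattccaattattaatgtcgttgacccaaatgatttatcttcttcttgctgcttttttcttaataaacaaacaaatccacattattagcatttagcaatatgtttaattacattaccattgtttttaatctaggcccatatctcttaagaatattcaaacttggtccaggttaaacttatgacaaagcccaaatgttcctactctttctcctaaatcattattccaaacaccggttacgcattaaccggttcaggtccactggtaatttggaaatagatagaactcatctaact
The G-box began 51 bases upstream of the annotated start in NDHL and 40 bases upstream in PNSB5. NDHL also held an E-box match, 144 bases upstream and written as CATGTG on this strand. None of these motifs was in the NDHS window, nor in those of NDHM, NDHN, PNSB1, PNSB2 and PNSB4. Among these genes without a match, NDHN, PNSB2 and PNSB4 were higher in every comparison. Of the windows shown, those of NDHL and NDHS overlap the annotated non-coding loci AT1G09193 and AT4G07190. The G-box was in 2 of 10 windows, against 7.09% of the 27443 windows of protein-coding genes. The E-box was in 2 of 10 against 13.1%, the GLK element in 1 of 10 against 12.2% and the I-box in 1 of 10 against 14.5%. These matches are descriptions of letters and not of bound sites.

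The values are the authors' FPKM, a fragment count scaled to transcript length and to the mapped fragments of the library, and each group has a single figure for a gene. The spread among the 3 libraries of a group is therefore not known: no difference below has a replicate check, no SD can be given, no test was possible, and the depth is unknown. A gene is called higher or lower where its FPKM was 2-fold or more away from that of Col_D, and the direction of every fold is the treated or mutant group over Col_D. The genes analysed were 14810 for light, 14844 for det1-1 and 15014 for pifq, with a median log2 fold of 0.02, -0.03 and 0.01. In pifq, PIF3 was 0.802 against 30.2 FPKM and PIF5 1.39 against 9.44 FPKM, while PIF1 and PIF4 were not lower (23.7 against 19.2 and 20.9 against 20.5 FPKM); the PIF4 pair is outside the analysed set, since its Col_D values differed 1.88-fold between tables. DET1 was 16.7 FPKM in det1-1 and 15.1 FPKM in Col_D. The same dark wild type libraries stand in all 3 tables, which were scaled separately. The Col_D values of the 8 genes in the light table were 1.08 times those in the det1-1 table, so the 3 comparisons share their control and do not support each other.

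NDH subunit transcripts were mostly higher after 6 h of light: of 7 genes analysed, 6 were at least 2-fold higher and 0 lower, in a table where 12.4% of all genes were called higher and 10.1% lower. Their median log2 fold was 1.71. In dark det1-1, 5 of 6 were higher and 0 lower, against 17.3% and 9.71% of all genes, with a median log2 fold of 2.08. In dark pifq, 5 of 6 were higher and 0 lower, against 12.9% and 13.2% of all genes, with a median of 1.58. The member that was not higher was NDHS in every comparison. Each analysed member exceeded 1 FPKM in both groups, so the minimum of 1 FPKM fixed no direction here. A gene listed at 0 was not analysed, however, so a fall to 0 could not be called lower. That rule left out PNSB3 in det1-1, listed at 0 against 4.94 FPKM in Col_D. In bulk seedlings, more RNA per cell and more cells of a green type cannot be told apart.

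**Figure D1:**
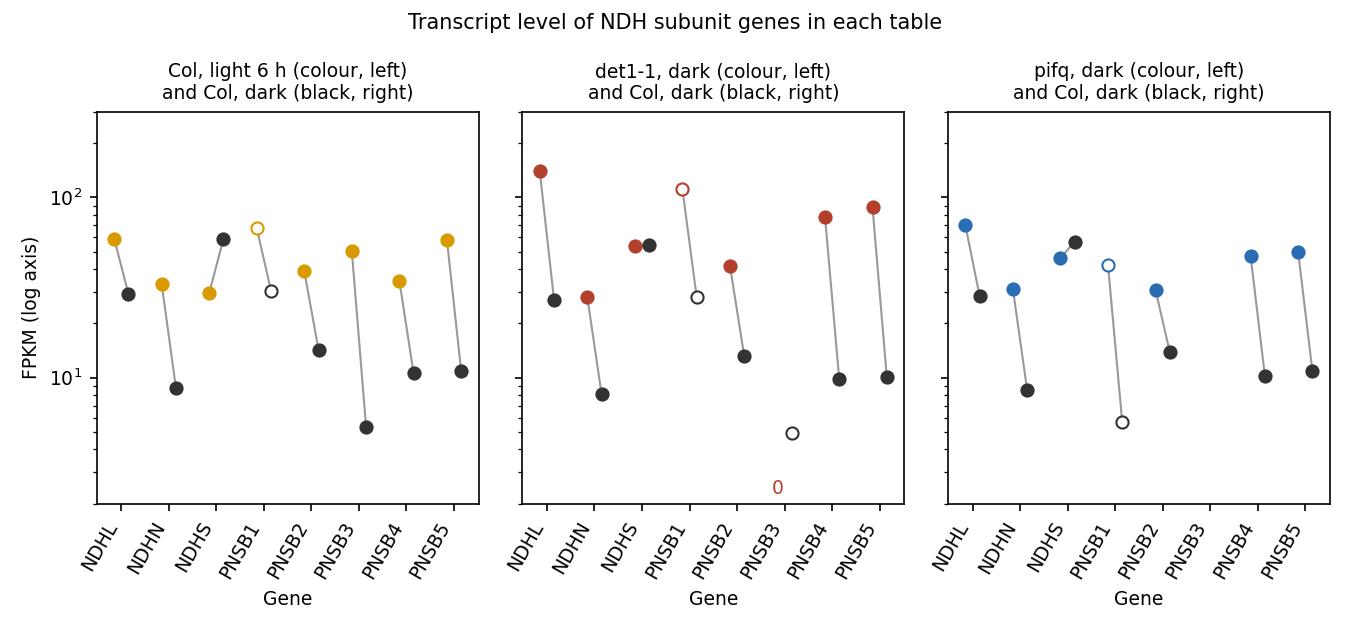
FPKM (log axis) of the 8 NDH subunit genes with an entry, by deposited table; the coloured point at left is the treated or mutant group and the black point at right is dark wild type of the same table, each the authors' single value per group. Open points are values outside the analysed set, and the 0 is PNSB3 in det1-1; NDHS alone has its black point at or above the coloured one in all 3 panels.

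In subcomplex A, NDHL was 59.2 FPKM in light against 29.2 FPKM in Col_D, 139 FPKM in det1-1 against 27.1 FPKM in Col_D, and 70.1 FPKM in pifq against 28.3 FPKM in Col_D. The folds were 2.03, 5.15 and 2.47, so light gave a value just past the 2-fold line and det1-1 one far past it. The light call of NDHL was lost with 1 FPKM added to both groups, where its log2 fold was 0.99. NDHL shares 587 bases with AT1G70770 and 830 bases with the non-coding locus AT1G09193, both on the opposite strand. Strand handling was not given in the sources used here, and reads from such partners cannot be told apart. AT1G70770 had an entry in the pifq table, at 53.7 FPKM in pifq and 48.6 FPKM in Col_D.

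NDHN, the stromal subunit of subcomplex A with values, was 33.1 FPKM in light against 8.76 FPKM in Col_D, 28.0 FPKM in det1-1 against 8.11 FPKM in Col_D, and 30.9 FPKM in pifq against 8.51 FPKM in Col_D. Its folds of 3.78, 3.45 and 3.63 were the most even of any member. NDHN overlaps EMB3143 (AT5G58250) on the opposite strand over 211 bases. EMB3143 was 157 against 83.0 FPKM in light, 150 against 76.7 FPKM in det1-1 and 250 against 46.4 FPKM in pifq. It is outside the analysed set, since its Col_D values differed 1.74-fold between tables after scaling. NDHN also shares 112 bases with AT5G58270 on the opposite strand, at 13.5 against 11.5 FPKM in the pifq table. The part of either gene in the NDHN values was not tested. One stretch of 222 bases of the NDHN transcript also matches chromosome 3 at 91.0% identity, from 3538592 to 3538813, where no gene is annotated; the transcripts of the other 9 genes had no match elsewhere of at least 50 bases at 90% identity.

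NDHS, the ferredoxin-docking subunit, differed from the rest. It was 29.5 FPKM in light against 59.0 FPKM in Col_D, 54.1 FPKM in det1-1 against 54.7 FPKM in Col_D, and 46.1 FPKM in pifq against 56.9 FPKM in Col_D. The log2 folds in det1-1 and pifq were -0.01 and -0.30. The light value lies just short of the 2-fold line, so NDHS was not called lower there, but it was called lower once folds were centred on the median of all genes (-1.02). In Col_D, NDHS had the highest level of the members with values in each table. In light its 29.5 FPKM was the lowest figure, but too close to the 33.1 FPKM of NDHN to order. Over 709 bases NDHS lies opposite the non-coding locus AT4G07190, which, like AT1G09193, has no entry in the tables. NDHS also shares 54 bases with AT4G23885 on the opposite strand. AT4G23885 was at 118 against 111 FPKM in light and 66.9 against 103 FPKM in det1-1. In the pifq table it has 2 entries, at 26.7 against 57.7 FPKM and 31.2 against 61.9 FPKM. The part of AT4G23885 in the NDHS values was not tested.

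The subcomplex B genes were higher wherever they were analysed. PNSB5, a membrane-spanning subunit, was 58.4 FPKM in light against 10.9 FPKM in Col_D, 88.1 FPKM in det1-1 against 10.1 FPKM in Col_D, and 49.9 FPKM in pifq against 10.9 FPKM in Col_D. Its folds of 5.34, 8.71 and 4.58 stood above 97.2%, 97.3% and 96.9% of all genes analysed in the same table. PNSB4, also a thylakoid membrane subunit, was 34.5 FPKM in light against 10.6 FPKM in Col_D, 78.3 FPKM in det1-1 against 9.79 FPKM in Col_D, and 47.3 FPKM in pifq against 10.3 FPKM in Col_D. The folds of PNSB4 were 3.27, 8.0 and 4.62, so both mutants exceeded the light value. PNSB4 lies opposite the non-coding locus AT1G18735 over 961 bases and shares 3 bases with AT1G18720, also on the opposite strand. AT1G18735 is listed at 0.122 FPKM in det1-1, 0.271 FPKM in pifq and 0 in light and Col_D. PNSB2 was 38.9 FPKM in light against 14.3 FPKM in Col_D, 41.9 FPKM in det1-1 against 13.3 FPKM in Col_D, and 30.6 FPKM in pifq against 13.9 FPKM in Col_D. These are folds of 2.72, 3.16 and 2.20, the smallest of the subcomplex B genes analysed in all 3 tables in each comparison.

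PNSB3, an iron-sulfur protein, had the largest fold of any member in light, 50.3 FPKM against 5.33 FPKM in Col_D, or 9.45-fold. PNSB3 lies opposite the non-coding locus AT3G03275, which has no entry, over 282 bases. It also overlaps DELTA-TIP (AT3G16240), a gene for a vacuolar water channel, over 120 bases on the opposite strand. DELTA-TIP moved the other way in light, at 268 FPKM against 2049 FPKM in Col_D. In the det1-1 table PNSB3 is listed at 0 in det1-1 against 4.94 FPKM in Col_D. Its neighbours on both sides are also listed at 0 in det1-1, DELTA-TIP against 1900 FPKM and TRZ4 (AT3G16260) against 24.0 FPKM in Col_D, so no fold is given there. PNSB3 has no entry in the pifq table.

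PNSB1 was left outside the counts because its entries could not be compared like the others. It was 67.7 FPKM in light against 30.3 FPKM in Col_D and 112 FPKM in det1-1 against 28.1 FPKM in Col_D. From the deposited log2 ratio, both of these entries were read as not compared by the authors' program. In the pifq table it was 42.1 FPKM in pifq against 5.65 FPKM in Col_D. The Col_D value therefore differed 5.21-fold between tables after scaling, although the libraries are the same. The ratios of the FPKM values, 2.23, 3.97 and 7.46, all point upward, but their sizes cannot be set beside each other. PNSB1 shares 231 bases with CNGC7 (AT1G15990) on the opposite strand. CNGC7 was 0.07 against 0.0111 FPKM in light, 0.0479 against 0.0103 FPKM in det1-1 and 0.0105 against 0.0108 FPKM in pifq.

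**Figure D2:**
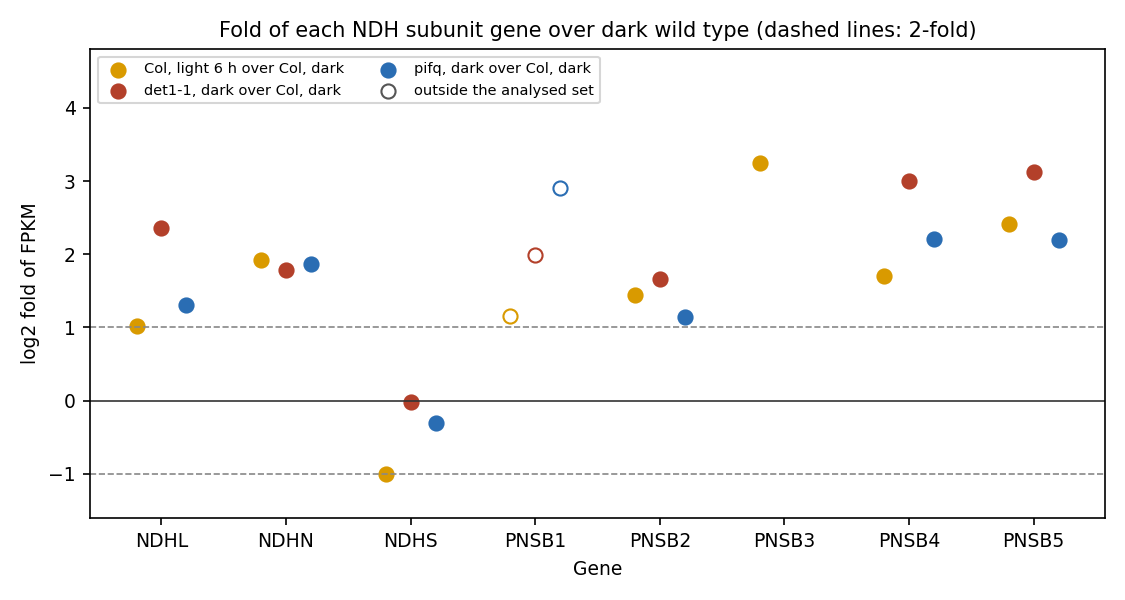
Log2 fold of FPKM over dark wild type for each of the 8 genes in light (yellow), det1-1 (red) and pifq (blue); filled points were analysed, open points were not, and the dashed lines mark 2-fold. NDHS lies at or below -0.01, on or inside the dashed lines, and every other filled point lies at 1.02 or above.

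Ranked by FPKM, the 6 members analysed in all 3 tables ran in Col_D of the light table from NDHS through NDHL, PNSB2, PNSB5 and PNSB4 to NDHN. In light the order was NDHL, PNSB5, PNSB2, PNSB4, NDHN and NDHS. PNSB5 and PNSB4 differed by little in Col_D, 10.9 and 10.6 FPKM, and so did PNSB4, NDHN and NDHS in light, between 29.5 and 34.5 FPKM; without a spread, neighbours this close cannot be ordered. The highest of the 6 levels was 2.01 times the lowest in light and 6.74 times the lowest in Col_D of that table. In det1-1 the ratio was 4.98 and in pifq 2.29, against 6.74 and 6.69 in Col_D of those tables. NDHS alone sets the top of the Col_D range. Over the other 5 genes, a set formed after the values were seen, the ratio was 1.79 in light against 3.33 in Col_D and 2.29 in pifq against 3.33 in Col_D. In det1-1 it was 4.98 against 3.34 in Col_D, so without NDHS the levels lay further apart in det1-1 and closer together in light and pifq. NDHL was the highest in det1-1 and in pifq, at 139 and 70.1 FPKM; in light NDHL and PNSB5 were too close to order, as were PNSB5, PNSB4 and NDHS in pifq.

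Photosystem I and mitochondrial complex I were set beside these genes, as the partner of the NDH complex and its relative in respiration. Over the genes analysed in all 3 tables, the median FPKM of the 6 NDH genes was 36.7 in light against 12.6 in Col_D, 66.2 in det1-1 against 11.7 in Col_D and 46.7 in pifq against 12.4 in Col_D. The 10 nuclear photosystem I genes had medians of 516 against 112, 979 against 104 and 1222 against 108 FPKM. The 10 nuclear mitochondrial complex I genes had medians of 106 against 103, 111 against 95.1 and 95.3 against 98.7 FPKM. The median log2 folds in light, det1-1 and pifq were 1.58, 2.08 and 1.58 for NDH, 1.82, 3.26 and 3.68 for photosystem I, and 0.27, 0.29 and 0.04 for mitochondrial complex I. Of the photosystem I genes analysed in each table, 10 of 12 were higher in light, 12 of 12 in det1-1 and 10 of 10 in pifq, with PSAH2 (log2 3.79) leading in light and pifq (5.24) and PSAO in det1-1 (4.25). PSAK had log2 folds of 3.13, 3.75 and 4.01, and PSAN 4.09 in det1-1. Side by side, the NDH median was nearest to that of photosystem I in light and furthest from it in pifq. Of the mitochondrial genes analysed in each table, 0 of 11 were called in either direction. The shares of all genes called higher were 12.4% in light, 17.3% in det1-1 and 12.9% in pifq, and those called lower 10.1%, 9.71% and 13.2%.

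**Figure D3:**
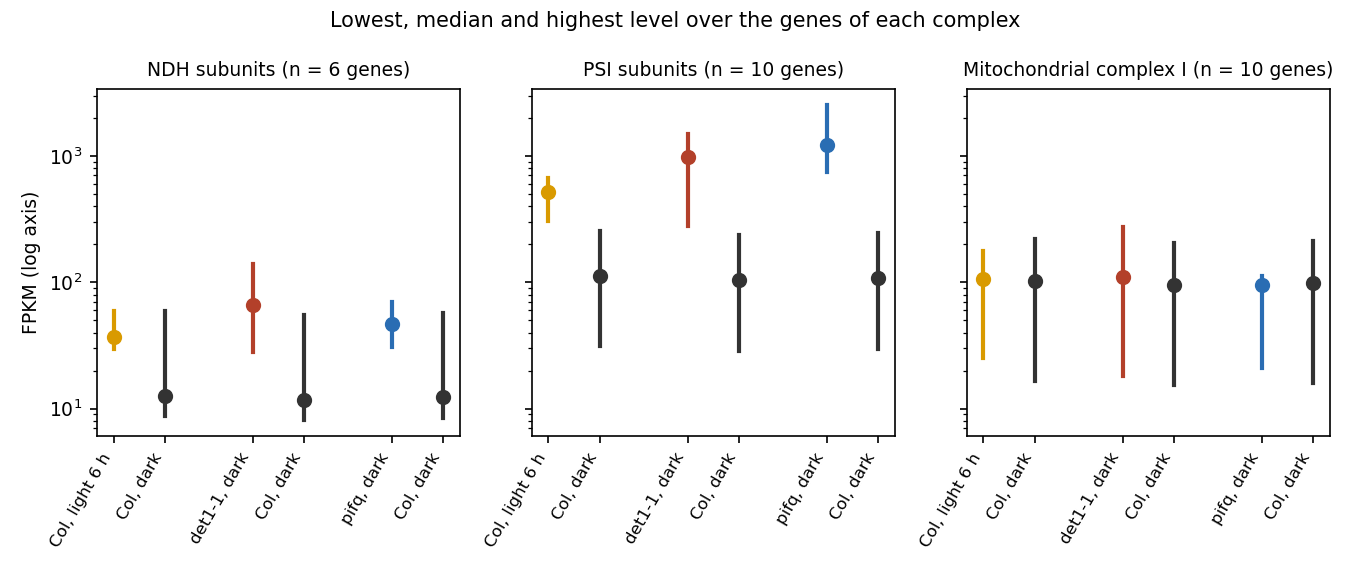
Lowest, median (point) and highest FPKM (log axis) over the genes of each complex analysed in all 3 tables, with the treated or mutant group left of dark wild type of the same table. NDH medians are 36.7 to 66.2 FPKM in the coloured groups and 11.7 to 12.6 FPKM in dark wild type, while the mitochondrial complex I medians are all between 95.1 and 111 FPKM.

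The rest of the NDH machinery was read from lists of 39 further genes. Pooled over them, 11 of 20 analysed genes were higher in light, 14 of 21 in det1-1 and 16 of 20 in pifq, and 0 were lower in each. Over all genes analysed, 12.4%, 17.3% and 12.9% were called higher and 10.1%, 9.71% and 13.2% lower. The single lists below stand against the same shares. Of the higher genes, 3 in light, 3 in det1-1 and 4 in pifq were under 1 FPKM in Col_D and passed the minimum of 1 FPKM only through the higher group, so the counts are partly fixed by it. NDHT, a J-domain protein of subcomplex E, was 10.2 against 0.988 FPKM in light, 13.5 against 0.915 FPKM in det1-1 and 5.17 against 0.959 FPKM in pifq. Since NDHT was under 1 FPKM in Col_D, it could be analysed only because it was higher. NDHU, the other J-domain subunit there, was 28.2 against 2.75 FPKM in light, 94.2 against 2.55 FPKM in det1-1 and 23.1 against 1.78 FPKM in pifq, and was left out because its Col_D values differed between tables by just more than the tolerance of 1.5-fold. AT2G04039, annotated as a DUF2996 protein and put on the list of subcomplex E, had log2 folds of 2.48, 3.79 and 2.89. AT2G04039 is thus the single gene of this list whose folds do not depend on the minimum or the tolerance.

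Among lumenal subunits, 2 of 3 analysed were higher in light and 3 of 3 in each mutant. PNSL2, a PsbQ-like protein, had log2 folds of 1.89 in light, 2.86 in det1-1 and 1.96 in pifq. PNSL4, an immunophilin, had log2 folds of 1.15, 1.51 and 2.23, and the cyclophilin PNSL5 had 0.66, 1.59 and 1.11. PNSL5 in pifq was 0.79 when the Col_D values of the tables were averaged, under the 2-fold line. PNSL3, also PsbQ-like, was 168 against 5.57 FPKM in light, 75.5 against 5.16 FPKM in det1-1 and 91.3 against 9.56 FPKM in pifq, outside the analysed set for its uneven Col_D values, and PNSL1 (AT2G39470) was not analysed here. LHCA5 and LHCA6, the antenna proteins that tie the complex to photosystem I, were higher in each comparison, with log2 folds of 3.00 and 2.04 in light, 4.14 and 2.01 in det1-1 and 2.67 and 2.85 in pifq.

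Assembly factors were higher in 2 of 6 in light, 4 of 6 in det1-1 and 5 of 6 in pifq, with medians of 0.80, 1.11 and 1.25. The det1-1 count includes AT5G52780 on the 2-fold line (log2 1.00). With 1 FPKM added to both groups its log2 fold was 0.98 and the count was 3. CRR7 was 45.8 against 7.45 FPKM in light, a log2 fold of 2.62, against 1.28 in det1-1 and 1.39 in pifq. CRR3 had 1.39, 1.99 and 2.17, and CRR42, with an entry in the pifq table, was 20.2 against 5.85 FPKM there (log2 1.79). CRR1 and CRR6, needed to build the stromal arm, had log2 folds of 0.61 and 0.69 in light, 0.92 and 1.22 in det1-1 and 1.10 and 1.05 in pifq. Proteins that edit or process plastid ndh transcripts were higher in 3 of 6, 3 of 7 and 4 of 6, but 2, 2 and 3 of those passed the minimum only through the higher group, and these counts support nothing. The gene above 1 FPKM in both groups among them was CRR21, at 6.02 against 1.33 FPKM in light, 5.96 against 1.23 FPKM in det1-1 and 7.95 against 1.29 FPKM in pifq. OTP85 had log2 folds of 1.51, 1.54 and 1.91 and OTP84 of 1.27, 1.71 and 1.53, both under 1 FPKM in Col_D, so that they too were analysed only because they were higher, as was AT5G66520 in pifq (2.59 against 0.995 FPKM). Levels were low in this list, and with 1 FPKM added to both groups 1, 1 and 2 of them were past 2-fold in light, det1-1 and pifq.

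Of 12 plastid identifiers for NDH subunits, 3 had an entry. ATCG00890 and ATCG01250, with the same values, were 8.02 against 30.7 FPKM in light, 3.83-fold lower, and 26.5 against 29.8 FPKM in pifq. In det1-1 both are listed at 0 in either group, which left them outside the analysed set in every comparison. ATCG01010 alone could be analysed. It was 54.3 against 84.8 FPKM in light, 54.1 against 80.6 FPKM in det1-1 and 91.0 against 81.7 FPKM in pifq, none of them a 2-fold difference. PGR5, a protein of the other route of cyclic electron flow, was 121 against 33.6 FPKM in light, 186 against 31.1 FPKM in det1-1 and 90.4 against 32.6 FPKM in pifq. It was the single higher gene of 2 analysed on its list in light, of 2 in det1-1 and of 3 in pifq. PGRL1B of the same route, analysed in pifq alone, was 14.0 against 13.7 FPKM there. PGRL1A (AT4G22890) is outside the analysed set for its uneven Col_D values. The plastid terminal oxidase gene IM differed by less than 2-fold in all 3 (log2 0.29, 0.35 and 0.07).

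**Figure D4:**
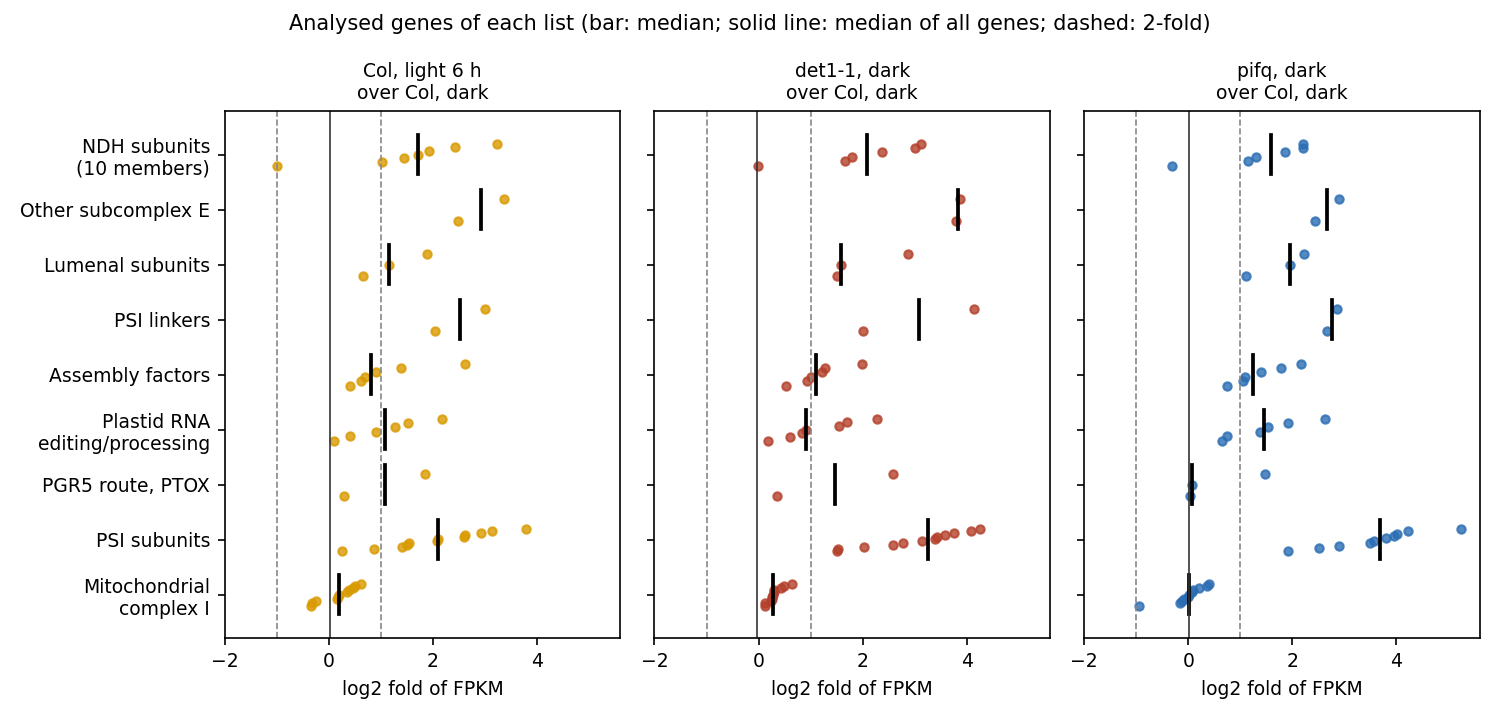
Log2 fold of FPKM over dark wild type for each analysed gene of the NDH subunits and of the comparison lists, by comparison; short bars are list medians, the solid line is the median of all genes and dashed lines mark 2-fold. The NDH medians are 1.71, 2.08 and 1.58, and all mitochondrial complex I points lie inside the dashed lines.

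Root markers are given beside the mutant results. Of the root markers analysed, 0 of 4 were lower in light, 1 of 3 in det1-1 and 1 of 4 in pifq. Over all genes analysed, the shares called lower were 10.1%, 9.71% and 13.2%. CASP1, of the root endodermis, was the lower one, at 133 against 349 FPKM in det1-1 and 128 against 342 FPKM in pifq, and it was 396 against 376 FPKM in light. The sum over the 4 markers above 0 in every table was 259 FPKM in det1-1 against 544 FPKM in Col_D, 255 FPKM in pifq against 546 FPKM in Col_D, and 670 FPKM in light against 586 FPKM in Col_D. Those sums are mostly CASP1 and CASP2, with CASP2 at 102 against 169 FPKM in det1-1 and 98.8 against 176 FPKM in pifq. From its deposited log2 ratio, CASP2 in det1-1 was read as not compared by the authors' program. SCR was 18.7 against 19.2 FPKM in det1-1 and 20.0 against 20.2 FPKM in pifq. RHD6 was 5.33 against 7.07 FPKM in det1-1 and 7.99 against 7.55 FPKM in pifq. PYK10, also on the list, is listed at 0 against 4418 FPKM in Col_D for light and at 0 against 4055 FPKM for det1-1. It has no entry in the pifq table. PYK10 is therefore outside these counts and sums, although its Col_D values are the highest of the listed markers. PORA, a marker of etiolated cotyledons, was 3.08 against 178 FPKM in light, 3.72 against 161 FPKM in det1-1 and 181 against 173 FPKM in pifq. What part a shift in tissue shares has in the NDH values was not tested.

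Genes were ranked by Euclidean distance from the median profile of the 6 members, NDHS included, over the 3 log2 folds. The 9956 genes ranked had at least 5 FPKM in the higher group of each comparison. The nearest were PTAC12 (distance 0.13), a protein of the plastid transcription machinery, AT5G58330 (0.16), annotated as a lactate/malate dehydrogenase family protein, AT1G55140 (0.19), a ribonuclease III family protein, AT1G67660 (0.22) and the glycosyltransferase GT18 (0.23). The members themselves lay at 0.53 for NDHN to 1.48 for PNSB5, and NDHS at 3.82. All 5 genes were thus nearer to the median profile than any member, and their distance to single members was not ranked. PTAC12 was 19.8 against 6.19 FPKM in light, 23.3 against 5.73 FPKM in det1-1 and 20.5 against 6.49 FPKM in pifq. AT1G67660 was 6.27 against 1.87 FPKM in light, 8.07 against 1.74 FPKM in det1-1 and 5.80 against 1.95 FPKM in pifq. It was thus ranked only because it was higher. With a minimum of 1 FPKM, 3 of the 5 nearest genes were again among the nearest 5.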

How the data were processed

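RNA-seq of 12 seedling libraries in 4 groups of 3 was deposited as 3 tables, each with the authors' FPKM of 1 group and of dark wild type, and a log2 ratio as the authors' program wrote it. Per the submitters' processing notes, the tools were TopHat and Cufflinks and the build TAIR10; tool versions, the annotation and the strand setting are not given in the sources used here. No header names a unit, and FPKM was taken from Cufflinks and the values. For some genes the deposited log2 ratio is 0 although the FPKM of the groups differ. This was read as no comparison by the authors' program, which no header states.

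Log2 folds were computed from the deposited FPKM without a pseudocount (Python 3.11.15, pandas 2.3.3). A gene was analysed with a single entry, both groups above 0, a comparison by the authors' program, 1 FPKM or more in whichever group was higher, and Col_D values within 1.5-fold between tables after scaling by the median ratio (1.08 for det1-1, 1.03 for pifq, to the light table). Entries without a gene name (291, 291 and 231) held 10.8%, 15.3% and 10.5% of the Col_D sum and stayed out. A fold of 2 stands in for a test, since there are no values per library. The calling step was run on simulated data whose changes lay well past the 2-fold line over a small spread. Recovery was thus fixed in advance, so that run checks the code and not the calls made here.

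The members, lists and rules were chosen with earlier results of these data known. All members and all genes of the subcomplex E, lumenal and linker lists are named by rule, and of other lists up to 3 past 2-fold. CRR1, AT5G52780, PGRL1A, PGRL1B, IM, ATCG01010 and the neighbouring genes were named after their values were seen. Promoter windows of 300 bases were read from the RefSeq genome, TAIR10.1, and transcripts were matched to it with BLAST 2.17.0.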

Additional observations from a re-analysis of the deposited data

How the results depend on the processing

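The 3 counts of members at least 2-fold higher (6, 5 and 5 in light, det1-1 and pifq) and their medians stayed within 1.5-fold of the reported count, and on the same side of 2-fold, under all 9 alternatives. These changed the value added to FPKM, the minimum level, the centring, the Col_D value used, the tolerance between tables, the fold called and, chosen after seeing the data, the keeping of genes that the authors' program did not compare together with no tolerance between tables. With these last 2 choices together the counts were 7, 6 and 6, PNSB1 being the gene added; dropping the tolerance alone already gave 6 in pifq. With 5 FPKM added to both groups, the counts over the further NDH genes dropped to 6 in light, 9 in det1-1 and 8 in pifq, against 11, 14 and 16; that addition lowers the fold of low genes by construction. The same setting brought NDHL in light (log2 0.91), PNSB2 (0.91), NDHT (0.77) and PNSL5 (0.97) in pifq, and PNSL4 in light (0.85) under 2-fold. Of 387 log2 folds and medians recomputed, 377 stayed on the same side of the line called. The sign changed in 1 of them, NDHS in det1-1, which was 0.01 when centred, against -0.01, far from 2-fold in both. Of 324 counts recomputed, 245 equalled the reported count, 50 differed from it by at most 1.5 times and 29 by more. NDHS in light was called lower when centred (-1.02) and at a 1.5-fold line. The planned fits that leave out a replicate were not run. No paired analysis was possible because the tables give 1 value per group and none per library. Without depth, the counting error of genes with low FPKM cannot be given.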
